A study of Mus musculus with 4 samples.

Results

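Guides against the microRNA clusters best known from pluripotent and dividing cells (the mir-290 cluster, which runs to mir-295, the mir-302 cluster, which ends with mir-367, the mir-17 cluster, which ends with mir-92a-1, the related mir-106a and mir-106b clusters, and mir-92b) were examined in a pooled CRISPR-Cas9 knockout screen. The entries were chosen by name from the authors' deposited table. They number 29 of 22510 entries in all, and 29 of 1132 microRNA entries. The 29 entries hold 107 of the table's 121918 guides. Their distribution was centred at 0, with a median log2 fold change of -0.0056, and none passed a false discovery rate of 0.05. The highest and the lowest value both belonged to the X-linked mir-106a cluster and to hairpins 70 bases apart, mir-92a-2 at 1.26 and mir-363 at -2.25 per the authors' deposited table.

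The screen used E14, an established mouse embryonic stem cell line, with a tdTomato reporter of MERVL, an endogenous retrovirus active in the early embryo and in a rare 2C-like state of these cells. All cells carried the genotype MERVL-tdTomato, were grown with serum and leukemia inhibitory factor, and received the same lentiviral library of 130209 guides in the lentiCRISPRv2 backbone, followed by puromycin. The 2 libraries labelled MERVL-positive came from cells sorted for tdTomato at day 5, and the other 2 from total cells, with no further treatment in either group. About 500000 cells were sorted, or 3.84 per library guide, and the titles call the libraries sequencing repeats, so the deposited p-values may measure technical spread alone. The table gives 1 comparison of the groups per entry and no value per library. Depth is therefore unknown, and no member has a spread between libraries. The identity of the cells was not checked against marker genes, because guide abundance in genomic DNA holds no expression.

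The table does not name the group in the numerator. Positive values are taken to mean that guides were more abundant in MERVL-positive cells, a likely but unsettled reading that rests on the study's title, which links loss of Ints7 to MERVL, and on the rank of Ints7, 157 for positive and 18586 for negative change among 22510 entries per the authors' deposited table. The deposited log2 fold change of Ints7 was only 0.14, against a standard deviation of 0.51 over all entries. Turning this reading of positive values would turn every direction given here.

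MicroRNAs are cut from hairpins in longer primary transcripts by Drosha and Dgcr8, trimmed by Dicer1 and loaded into Argonaute proteins. They pair with target mRNAs mainly through the seed, bases 2 to 8 of the mature strand, so hairpins that give the same seed can act on overlapping targets. The mir-290 and mir-302 clusters are abundant in pluripotent cells and are known for promoting the passage from G1 to S phase. The mir-17 cluster and its relatives are known for supporting proliferation and survival.

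Mature sequences were read from RefSeq on GRCm38.p6, which has the coordinates of mm10, the build in the submitters' processing notes. All 29 entries matched a RefSeq microRNA gene. A mature strand of the arm each microRNA is best known for was listed for 26 of them. mir-292 and mir-302a were not grouped by seed here, and neither was mir-290b. Across the 26, 9 different seeds occurred, and 5 seeds were held by more than 1 member. The strands below are the ones on which the grouping turns, with the seed in capitals. The first 5 share the seed AUUGCAC and include the highest and the lowest value.
miR-92a-3p: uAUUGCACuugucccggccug
miR-363-3p: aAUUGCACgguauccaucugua
miR-367-3p: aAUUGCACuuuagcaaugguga
miR-25-3p: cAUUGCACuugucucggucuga
miR-92b-3p: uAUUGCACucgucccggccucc
The next strands carry the seed GUGCAAA of the miR-19 family, which has the lowest family median.
miR-19a-3p: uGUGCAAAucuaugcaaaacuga
miR-19b-3p: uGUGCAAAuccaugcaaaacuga
The seed AAGUGCU joins members of the mir-290 and mir-302 clusters.
miR-291a-3p: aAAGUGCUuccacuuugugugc
miR-294-3p: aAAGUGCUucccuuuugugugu
miR-302b-3p: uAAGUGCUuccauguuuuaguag
miR-302d-3p: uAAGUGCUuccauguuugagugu
The seed AAAGUGC, offset by 1 base from it, joins the mir-17 cluster with both of its relatives.
miR-17-5p: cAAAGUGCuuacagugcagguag
miR-106a-5p: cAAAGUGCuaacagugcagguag
miR-106b-5p: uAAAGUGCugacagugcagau
Among the 26, mir-290a, mir-291b and mir-302c, all above 0, each have a seed held by no other member. So does mir-293, whose guides were all down and whose strand is shown.
miR-293-3p: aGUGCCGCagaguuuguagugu

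The table also counts, for each entry, the guides past a threshold for positive change (up) and for negative change (down). This threshold is loose. Among the 1112 entries with a single guide, a guide counted as up had a log2 fold change of at least 0.12, and none that was not counted as up exceeded 0.40 per the authors' deposited table. For guides down the matching values were -0.10 and -0.42. Most members had 4 guides (22), while 6 had 3 guides and mir-290b had 1. Single non-targeting guides had a standard deviation of 0.77 on the log2 scale, and microRNA entries one of 0.75 with 3 guides and 0.59 with 4. The standard deviation over the 29 members was 0.64, the same as the 0.64 of all microRNA entries.

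For enrichment, 1 of the 29 members (3.45%) had an unadjusted p under 0.05 per the authors' deposited table, against 4.95% of all entries and 4.59% of all microRNA entries. For depletion, 3 members (10.3%) had an unadjusted p under 0.05 per the authors' deposited table, against 5.08% of all entries and 4.77% of all microRNA entries. Among 29 entries a single one makes 3.45%, so neither count is far from the background. With the MAGeCK false discovery rates no member passed 0.05 per the authors' deposited table, where 0% of all entries passed for enrichment and 0.00444% for depletion. The lowest false discovery rate among the members was 0.827 for enrichment and 0.846 for depletion per the authors' deposited table. Values of members are therefore described, and none is called changed.

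Of the 107 member guides, 34 were up, which is 31.8% (exact Clopper-Pearson 95% interval 23.1 to 41.5), against 39.6% over all microRNA entries. Down were 41, which is 38.3% (29.1 to 48.2), against 36.5%. The intervals cover counting error only. Guides of 1 entry aim at the same hairpin and those of 1 cluster at neighbouring hairpins, so they are not independent. Both intervals hold the value of all microRNA entries. In 18 members, guides went both up and down. All guides were down in 2 members, mir-293 and the single-guide entry mir-290b, and no member had all guides up. The members lay at 0.22 from 0 by their median absolute log2 fold change, against 0.38 for all microRNA entries.

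The mir-106a cluster spans 875 bases of chromosome X from 52741693 to 52742567 and is a paralogue of the mir-17 cluster. In the order of transcription on the minus strand, mir-106a had a log2 fold change of -0.50, mir-18b -0.014, mir-20b -0.14, mir-19b-2 0.10, mir-92a-2 1.26 and mir-363 -2.25 per the authors' deposited table. The first 4 hairpins lay between -0.50 and 0.10, and the last 2 lay at opposite ends of the whole group. Over its 6 entries the median was -0.076, and their standard deviation of 1.14 was the widest of the 5 clusters with more than 1 member.

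mir-92a-2, one of a pair of hairpins that yield miR-92a, is at chrX:52741838-52741928. Its value of 1.26 on the log2 scale is a ratio of 2.39, from 4 guides of which 2 were up and none down per the authors' deposited table. The p for enrichment was 0.000455 (false discovery rate 0.827), and its rank of 11 was the best of any microRNA entry per the authors' deposited table. Among 914 microRNA entries with 4 guides, 99.3% lay below it and 5 above it. Of the same entries, 52 had 2 guides up and none down, mir-92a-2 included. Over these 52 the median log2 fold change was 0.39 and the highest value was that of mir-92a-2, while 2 of the 52 had an enrichment p under 0.05 per the authors' deposited table. The other 2 guides of mir-92a-2 were inside both thresholds.

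mir-363, the last hairpin of the cluster, is at chrX:52741693-52741767. Its value of -2.25 on the log2 scale is a ratio of 0.210, from 3 guides of which 2 were down and none up per the authors' deposited table. The p for depletion was 0.00786 (false discovery rate 0.846) at rank 311 per the authors' deposited table. Of the 153 microRNA entries with 3 guides, 2 lay lower. The difference between these neighbouring hairpins was 3.51 on the log2 scale, although miR-92a-3p and miR-363-3p share a seed.

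The mir-17 cluster, the founding oncogenic microRNA cluster, spans 836 bases of chromosome 14 from 115043671 to 115044506, and its last hairpin lies within the long noncoding RNA gene Mir17hg as RefSeq places it. From first to last, mir-17 had a log2 fold change of 0.092, mir-18a 0.068, mir-19a -0.70, mir-20a -0.075, mir-19b-1 -1.10 and mir-92a-1 -0.11 per the authors' deposited table. The hairpins of the miR-19 family were the low ones, and the other 4 lay between -0.11 and 0.092. Over the cluster the median was -0.094.

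mir-19b-1, at chr14:115044305-115044391, had a ratio of 0.465, with 2 of 4 guides down and none up per the authors' deposited table. The p for depletion was 0.0096 (false discovery rate 0.861) per the authors' deposited table. Of 914 microRNA entries with 4 guides, 4.59% lay below it. mir-19a, separated from it by mir-20a, had 2 of 4 guides down and 1 up, with a depletion p of 0.244 per the authors' deposited table. In these data miR-19, known as the main oncogenic component of the mir-17 cluster, had its lower values in that cluster and not on chromosome X, where mir-19b-2 stood at 0.10 with none of its 3 guides past either threshold per the authors' deposited table. This contrast between the loci was not tested.

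The hairpins mir-19b-1 and mir-19b-2 give the same mature strand, and so do mir-92a-1 and mir-92a-2, so their values are set side by side. The hairpins are shown with that strand in capitals, 5′ to 3′, as RefSeq gives them on GRCm38.p6.
mir-19b-1: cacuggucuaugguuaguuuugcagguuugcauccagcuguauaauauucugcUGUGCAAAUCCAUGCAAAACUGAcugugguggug
mir-19b-2: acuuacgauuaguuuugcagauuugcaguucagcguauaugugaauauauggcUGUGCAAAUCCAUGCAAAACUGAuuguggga
mir-92a-1: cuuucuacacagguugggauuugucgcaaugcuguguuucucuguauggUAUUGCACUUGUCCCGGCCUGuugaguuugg
mir-92a-2: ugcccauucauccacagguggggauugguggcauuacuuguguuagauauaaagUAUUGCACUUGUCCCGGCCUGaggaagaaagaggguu
For miR-19b the copy on chromosome 14 had a log2 fold change of -1.10 and the copy on chromosome X one of 0.10 per the authors' deposited table. For miR-92a the order was the same, with -0.11 on chromosome 14 and 1.26 on chromosome X per the authors' deposited table. mir-92a-1 had 2 guides up and 2 down, while mir-92a-2 had 2 up and none down per the authors' deposited table. Knockout of 1 copy leaves the other in place, and whether a guide of one copy also cut the other was not tested.

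The guide sequences were not used here, but the hairpins limit where guides can lie. The Cas9 in this backbone needs the motif NGG next to its 20-base target. Both strands of 28 member hairpins were searched for 20-base targets that lay inside the hairpin together with their NGG, overlapping ones included. Each hairpin held 0 to 12 such targets with a median of 4.5, and 96.4% held at least 1. Among all 1005 RefSeq mouse hairpins, of varying length, the median was 6 and 97.1% held at least 1. No such target was shared by any pair of members. Only mir-92a-1 and mir-92a-2 had a target pair with the same last 12 bases, the part nearest to the NGG. In 10 hairpins there were fewer targets than guides in the table. At least 17 of the 103 guides against these 28 hairpins must therefore lie partly or wholly outside the RefSeq hairpin, if all used NGG. The largest shortfalls were in mir-293 and mir-106a, each with 4 guides and 1 target that fits inside with its NGG. mir-92a-2, with 12 targets, and mir-363, with 5, had no such shortfall.

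The mir-290 cluster, the most abundant microRNA cluster of mouse embryonic stem cells, spans 2216 bases of chromosome 7 from 3218626 to 3220841, inside or at the edge of the span of the gene Nlrp12. From mir-291a on, its hairpins also lie within the span of the long noncoding RNA gene D7Ertd143e. From first to last, mir-290a had a log2 fold change of 0.40, mir-290b -0.56, mir-291a -0.23, mir-292 0.22, mir-291b 0.20, mir-293 -1.06, mir-294 0.094 and mir-295 -0.62 per the authors' deposited table. Values on either side of 0 were interspersed along the cluster, with 4 above and 4 below. The median was -0.070. With 4 guides per entry the median was 0.15, so its sign turns on which members are used.

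mir-293, at chr7:3220343-3220422, was the lowest of this cluster. Its ratio was 0.480 and 4 of 4 guides were down, with a p for depletion of 0.0399 (false discovery rate 0.975) per the authors' deposited table. All 4 guides were down in 24 of the 914 microRNA entries with 4 guides, or 2.63%. Of the same entries, 5.47% lay below mir-293. Its neighbours mir-291b and mir-294 lay above 0, the first with 2 guides up and none down per the authors' deposited table.

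mir-294 and mir-295, with the AAGUGCU seed that is best known for speeding the cell cycle, lie 48 bases apart. mir-294 had 2 of 4 guides up and 1 down per the authors' deposited table, and mir-295 had 1 of 3 up and 2 down. mir-290a, the first hairpin, had 3 of 4 guides up and 1 down, with an enrichment p of 0.205, the best of its cluster per the authors' deposited table. The hairpin of mir-290b lies wholly within that of mir-290a on the opposite strand, over 58 bases, so a cut inside it also falls in mir-290a. Its single guide was down per the authors' deposited table, while 3 of the 4 guides of mir-290a were up, at the same locus. No 20-base target with NGG fits inside the mir-290b hairpin.

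The mir-302 cluster, which is strongest in primed pluripotent cells and is used in reprogramming, spans 580 bases of chromosome 3 from 127545228 to 127545807 within the span of Larp7, the protein that binds 7SK RNA. Its hairpins also lie within the span of the long noncoding RNA gene Gm51018. From first to last, mir-302b had a log2 fold change of -0.82, mir-302c 0.22, mir-302a 0.074, mir-302d -0.0056 and mir-367 0.60 per the authors' deposited table. The ends of the cluster lay apart and its middle lay near 0. mir-302b had 3 of 4 guides down and 1 up, with a depletion p of 0.189 per the authors' deposited table. mir-367, whose seed is that of miR-92a and not of miR-302, had 2 guides up and none down, with an enrichment p of 0.261 per the authors' deposited table. The best enrichment rank in the cluster was that of mir-302d, which had 2 guides up and 2 down and an enrichment p of 0.203 per the authors' deposited table. Over its 5 entries the median was 0.074. Larp7 itself stood at 0.69 on the log2 scale, with 4 of 5 guides up and an enrichment p of 0.0875 per the authors' deposited table.

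The mir-106b cluster spans 498 bases of chromosome 5 from 138165321 to 138165818 within the span of Mcm7, a subunit of the replicative helicase. mir-106b had a log2 fold change of 0.48, mir-93 0.17 and mir-25 0.027 per the authors' deposited table. All 3 lay above 0, which no other cluster showed, though the other clusters held 5 to 8 entries. Over the 3 entries of the mir-106b cluster the median was 0.17. mir-106b had 3 of 4 guides up and 1 down, with an enrichment p of 0.19 per the authors' deposited table, and mir-93 had 1 of 3 in each direction. mir-25 had 1 of 3 guides down and none up. Mcm7 stood at -0.35 on the log2 scale, with 2 of 6 guides up, 3 down and a depletion p of 0.0759 per the authors' deposited table. The log2 fold changes of the host gene and of the hairpin entries within its span thus had opposite signs. Guides of Mcm7, mir-106b and mir-93 went both ways, and the difference in sign was not tested. mir-92b, alone at chr3:89227116-89227198, stood at -0.012 on the log2 scale, with 1 of 3 guides down and none up per the authors' deposited table.

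Neighbouring hairpins on the same strand of a cluster were set side by side, which leaves out mir-290b. Over these 22 pairs, the median absolute difference was 0.62 on the log2 scale, with a range from 0.019 to 3.51, and 11 pairs had the same sign. The hairpins of a pair lie 35 to 782 bases apart, and whether a cut in one also touched the other was not tested.

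Grouped by seed, which the choice of members did not use, 3 of the 5 families with more than 1 member had medians between 0.0079 and 0.027. The AUUGCAC family of mir-92a-1, mir-92a-2, mir-92b, mir-25, mir-363 and mir-367, spread over 5 loci, had a median log2 fold change of 0.0079 and spanned the whole range of the members. With only its members of 4 guides the median was 0.60. Of its 21 guides, 6 were up and 6 down, or 28.6% each (11.3 to 52.2). The AAAGUGC family of mir-17, mir-20a, mir-20b, mir-106a, mir-106b and mir-93 had a median of 0.0082, with 3 above and 3 below 0. The AAGGUGC seed of mir-18a and mir-18b had a median of 0.027.

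The AAGUGCU family of mir-291a, mir-294, mir-295, mir-302b and mir-302d had a median of -0.23, with 4 of 5 below 0. With only its members of 4 guides the median was -0.12. mir-302a, for which no mature strand of this arm was listed, is left out of the family here. It stood at 0.074, with 1 of 4 guides up and 1 down. Of the 19 guides of the AAGUGCU family, 10 were down, which is 52.6% (28.9 to 75.6), and 7 were up. The GUGCAAA family of mir-19a, mir-19b-1 and mir-19b-2 had the lowest median of the families with more than 1 member, -0.70, with 1 of 11 guides up, which is 9.09% (0.23 to 41.3), and 4 down. Both intervals hold the value of all microRNA entries. The letters AAGUGC occur within bases 1 to 8 of 14 members and of 1.08% of 1674 RefSeq mouse mature sequences. This grouping was chosen after the values were seen. The 14 members had a median of 0.043 and 40.7% of guides up (27.6 to 55.0), against -0.013 and 20.5% (9.80 to 35.3) for the 12 without it. The first interval holds the 39.6% of all microRNA entries and the second lies below it. Both cover counting error only and the grouping followed the values, so they cannot decide whether the groups differ. The difference was not tested, and mir-290b, mir-292 and mir-302a are in neither group. Guides down made up 38.9% of the first group and 38.6% of the second. The groups also differed in guides per entry. mir-19b-2, mir-363, mir-25 and mir-92b, all in the second group, had 3 guides each and none up. mir-295 and mir-93, in the first group, had 3 guides each and 1 up. Over all members with 3 guides, 11.1% of guides were up, against 36.4% with 4 guides. Guide number and seed were not separated.

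The share of all entries with an unadjusted p under 0.05, 4.95% for enrichment and 5.08% for depletion, also stands beside the counts in the gene lists. Of 15 genes that make or use microRNAs, 8 lay above 0 and 7 below, with a median of 0.21, and none had an unadjusted p under 0.05 for enrichment or depletion per the authors' deposited table. Dgcr8, the RNA-binding partner of Drosha, had the lowest value, -1.53, with 4 of 6 guides down, none up and a depletion p of 0.0847 per the authors' deposited table. Drosha, the nuclear nuclease, had a value of 0.21, with 3 of 6 guides up and 2 down per the authors' deposited table. Dicer1, the cytoplasmic nuclease, had 0.26, with 2 of 5 guides up and 2 down per the authors' deposited table. Ago2, the Argonaute that can cut its target, had 0.24, with 3 of 6 guides up, 2 down and an enrichment p of 0.0946 per the authors' deposited table. The partners Drosha and Dgcr8 thus had values of opposite sign.

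Of 16 genes reported as targets of these microRNAs, 8 lay above 0 and 8 below, with a median of -0.00034 and none with an unadjusted p under 0.05 in either direction per the authors' deposited table. Of 6 regulators of their transcription, 1 had an unadjusted p under 0.05, Tcf7l1, a repressor of the pluripotency network, for depletion, against 5.08% of all entries. Its log2 fold change was -1.12, with 4 of 6 guides down and 1 up, and the p for depletion was 0.0483 (false discovery rate 0.975) per the authors' deposited table. Over the 6 genes the median was -0.026.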

How the data were processed

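Guide abundance was measured in 4 libraries of genomic DNA. The authors deposited 1 table of 22510 entries whose columns are, per the file headers, those MAGeCK writes in its summary per gene. The submitters' processing notes name MAGeCK and mm10, and no source used here states the version, the settings or the treatment group. The deposited values are a log2 fold change between the groups (its log base is MAGeCK's convention), and a p-value, a false discovery rate, a score (not used) and a rank per direction. The table further gives how many guides an entry has and how many passed a threshold. No source used here states how guides were combined.

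Members were taken by a name pattern, and clusters were assigned by hand from microRNA names. Medians, counts and exact Clopper-Pearson intervals were computed with Python 3.11.15, pandas 2.3.3 and scipy 1.17.1, in scripts tested on simulated data. No model was fitted. The deposited p-values and false discovery rates, computed over all entries, were used with a threshold of 0.05. Positions and sequences came from RefSeq on GRCm38.p6. The RefSeq table gives gene spans, so exon or intron was not assigned. The naming rule covers every member once, with full detail for members with an unadjusted p under 0.05, the extremes and the best-ranked member per cluster, and from the lists Dicer1, Dgcr8, Drosha, Ago2, the host genes and genes with an unadjusted p under 0.05. The members and lists were chosen with earlier results of these data known.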

Additional observations from a re-analysis of the deposited data

How the results depend on the processing

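Of 57 alternatives over 15 results, 44 kept a count within 1.5 times, a share within its interval or a median within 0.1 on the log2 scale. With the false discovery rate in place of the unadjusted p, members passing went from 1 to 0 for enrichment and from 3 to 0 for depletion. With the mean in place of the median, the value was -0.14 for all members, -0.19 for the mir-290 cluster, -0.31 for the mir-17 cluster, -0.26 for the mir-106a cluster and -0.57 for the GUGCAAA seed. With only members of 4 guides, the median was 0.15 for the mir-290 cluster, 0.48 for the mir-106b cluster (mir-106b alone), -0.12 for AAGUGCU, 0.60 for AUUGCAC and -0.90 for GUGCAAA. Without mir-293 the median of the mir-290 cluster was 0.094. Apart from the change to the false discovery rate, these alternatives used fewer members or gave more weight to extreme ones.

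No paired analysis was possible because the table has no value per library, which also kept each repeat from being left out in turn. Depth is unknown, and with 3.84 sorted cells per library guide, values near 0 leave room for effects too small to be seen.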
